A study of Ovis aries with 3 samples.

Results

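CXCL12, CXCL14, CXCR4 and ACKR3 are genes of 2 chemokine ligands and 2 chemokine receptors, and were followed here in single-cell RNA profiles of whole sheep embryos. They were chosen by name, and all 4 of them were present among the 26478 genes listed in the deposited count tables. CXCL12 (ENSOARG00020023515) is a secreted chemokine, CXCR4 (ENSOARG00020012040) is its signalling receptor, and ACKR3 (ENSOARG00020004297) is a second, atypical receptor. CXCL14 (ENSOARG00020009588) is a secreted chemokine known mainly from epithelia.

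The study profiled 3 libraries with droplet-based 3′ RNA capture, 1 library for each condition. E19 HSTS is an embryo at 19 days post-insemination of Hulunbuir short-tailed sheep, a breed whose tested animals were homozygous for a point mutation in the mesoderm gene T. E19 HS is an embryo of Hu sheep at the same age, with the wild-type T allele in the tested animals of that breed, and E16 HS is the Hu sheep library at 16 days. The series text names 3 embryos for E16 HS and its label names a single embryo, so whether that library pooled embryos was not settled, and the genotype of the embryos themselves was not read here. All 3 libraries went through the same collagenase dissociation and red blood cell lysis. Kept cells had 200 to 6000 genes, between 1000 and 30000 UMIs, and no more than 10% of UMIs from mitochondrial genes, where a UMI is a unique molecular identifier and stands for 1 counted RNA molecule. E19 HSTS kept 9618 cells, E19 HS kept 10629 and E16 HS kept 11329, with a median of 8675, 6900 and 9046 UMIs per cell. The libraries shared between 31 and 37 cell barcodes with each other. Every condition was a single library, so breed, genotype, age, embryo and library cannot be told apart. No test between conditions was possible, and each interval below covers counting error only (95%, exact).

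In vertebrate embryos CXCL12 is released by stromal and mesodermal cells, and cells that carry CXCR4, among them neural, endothelial and blood-forming cells, migrate along its gradient. CXCR4 signals through inhibitory G proteins, while ACKR3 binds the same ligand, couples to arrestins and removes CXCL12 from the surroundings. CXCL14 is a conserved product of epidermal and other epithelial cells.

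Cells were placed into clusters without using the 4 genes, and a cluster was called "-like" a cell type from marker genes. The clusters relevant here were neural progenitor-like and early neuron-like (neural), somite-like (somitic), endothelium-like, myeloid-like, a pair of gut epithelium-like clusters led by CLDN7 and SPP1 or by WFDC2 and UPK3A (epithelial), and a pair of mesenchyme-like clusters led by POSTN and IGFBP3 or by COL1A1 and DCN (mesenchymal). Some of them differed in size between the E19 libraries and E16 HS. The COL1A1 and DCN cluster held 42 and 69 cells at E19 but 1559 at E16. The WFDC2 and UPK3A cluster held 2, 7 and 326 cells. All 9 gut epithelium markers were higher in the CLDN7 cluster than in the other cells of each library. At least 10% of cells in both epithelial clusters had CLDN7, KRT7, EPCAM, KRT8, KRT18, CDH1 and CLDN4, but FOXA1 and FOXA2 stayed below that. The name thus marks an epithelium and does not settle that it is gut. In E16 HS only 5 of the 10 mesenchyme markers were higher in the POSTN cluster than in the other cells, whose summed marker level was 3124 counts per 1000000 UMIs (CPM) against 2660 CPM in the cluster. At E19 all 10 were higher there in both libraries. Blood progenitor-like cells, with haem and red-cell genes, made up 27.4% of the E19 HSTS cells, while E19 HS held 13.4% and E16 HS 17.7%. They hold many UMIs and few of the 4 genes, so library totals are given with and without them, and their values are given as a reference beside low values. They are not an empty reference, since they hold more UMIs per cell than most clusters and blood-forming cells can express CXCR4, so low values are compared in CPM.

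Over all kept cells CXCL12 stood at 5.48 CPM in E19 HSTS (546 UMIs), 5.11 CPM in E19 HS (453 UMIs) and 3.70 CPM in E16 HS (419 UMIs). The level at E16 was the lowest, with an E16 HS to E19 HS ratio of 0.725 (0.633 to 0.830). CXCL14 was at 40.1, 30.3 and 33.9 CPM in the same order, from 3989, 2693 and 3840 UMIs. CXCR4 was at 17.0, 20.6 and 19.7 CPM, from 1693, 1828 and 2232 UMIs. ACKR3 was close to the limit of detection with 35, 18 and 29 UMIs, never more than 1 in a cell. These CPM values describe a gene between samples and cell types and not one gene against another.

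Between the E19 libraries none of the 4 genes differed 2-fold over all kept cells, where 3.81% of 12439 genes with at least 50 UMIs in the pair did. For E19 HSTS against E19 HS the CXCL12 ratio was 1.07 (0.946 to 1.22), that of CXCL14 was 1.32 (1.26 to 1.39), that of CXCR4 was 0.825 (0.772 to 0.882) and that of ACKR3 was 1.73 (0.955 to 3.25). Blood progenitor-like cells moved these values. Without them the CXCL12 ratio was 1.36 (1.19 to 1.55), the CXCL14 ratio was 1.79 (1.70 to 1.88), and the CXCR4 ratio turned to 1.06 (0.990 to 1.13). The ACKR3 ratio was then 2.14 (1.17 to 4.03) on 33 against 18 UMIs, past 2-fold where 3.33% of the genes were. Between E16 HS and E19 HS none of the 4 genes passed 2-fold, against 13.3% of the genes with at least 50 UMIs in the pair. ACKR3, on 29 against 18 UMIs, was under that limit, and its ratio of 1.26 (0.678 to 2.41) has an interval that includes 2-fold.

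**Figure D1:**
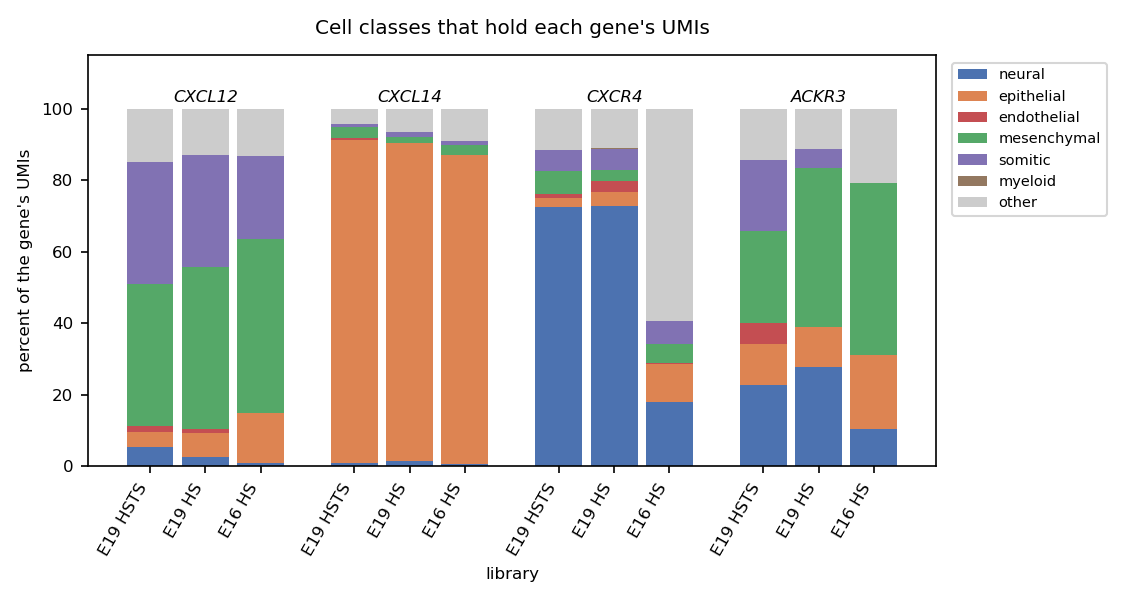
Share of each gene's UMIs held by each cell class, as stacked bars in percent, with 1 bar per library. In the clustering used, mesenchymal and somitic cells hold 71.8% to 76.6% of CXCL12 UMIs and epithelial cells hold 86.6% to 90.5% of CXCL14 UMIs, while the neural share of CXCR4 is 72.5% and 72.9% at E19 and 18.1% at E16.

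CXCL12 UMIs lay mainly in mesenchyme-like and somite-like clusters. Mesenchymal cells held 39.7% of its UMIs in E19 HSTS (35.6% to 44.0%), 45.5% in E19 HS (40.8% to 50.2%) and 48.7% in E16 HS (43.8% to 53.6%). Somite-like cells held a further 34.2%, 31.1% and 23.2%. The line between these classes was not stable. At the finer resolution of 1.0 the mesenchymal share was 17.4%, 20.8% and 38.4%, because 788 of 1614, 1074 of 2162 and 533 of 1222 POSTN cluster cells were then called somite-like, while both classes together held 72.5%, 75.1% and 71.8% of the UMIs. With RPCA integration the mesenchymal share was 6.23%, 10.2% and 28.6% and the sum of both was 25.8%, 30.7% and 38.7%, since POSTN cluster cells went mostly to somite-like or unnamed clusters and the somite-like class was also smaller. In the POSTN mesenchyme-like cluster CXCL12 was at 18.5 CPM in E19 HSTS (16.0 to 21.2), 13.9 CPM in E19 HS (12.0 to 16.1) and 9.69 CPM in E16 HS (7.65 to 12.1). Somite-like cells had 16.1 CPM (13.9 to 18.6), 11.7 CPM (9.82 to 13.8) and 7.57 CPM (6.14 to 9.23). The order of the libraries was thus the same in both cell types, with E19 HSTS highest and E16 HS lowest, and the 3 intervals just missed each other or met at their ends.

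The E19 HSTS to E19 HS ratio of CXCL12 was 1.33 (1.08 to 1.63) in the POSTN cluster and 1.38 (1.11 to 1.73) in somite-like cells. The E16 HS to E19 HS ratio was 0.696 (0.526 to 0.913) and 0.649 (0.496 to 0.846). CXCL12 UMIs were spread thinly, since 83.7% to 88.4% of the cells with the gene had exactly 1 UMI. In the POSTN cluster 10.5%, 7.17% and 5.40% of the cells had a CXCL12 UMI. After thinning every cell to 3000 UMIs these shares were 4.77%, 4.04% and 3.12%, so the library order stayed while the gap at E19 narrowed. Over all mesenchymal cells the E19 HSTS to E19 HS ratio of 1.22 became 1.08 (0.791 to 1.47) after thinning, an interval that includes 1. In somite-like cells the thinned ratio was 1.52 (1.049 to 2.22). At all UMIs, blood progenitor-like cells had a CXCL12 UMI in 0.835%, 0.352% and 0.299% of cells. Their median was 17492, 17569 and 13946.5 UMIs per cell against 6753, 5638.5 and 6228 in the POSTN cluster.

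The highest CXCL12 level among the clusters of at least 50 cells was in the COL1A1 and DCN cluster of E19 HS, at 39.9 CPM (26.0 to 58.4) from 26 UMIs in 69 cells. The same cluster had 21.7 CPM (9.93 to 41.2) in E19 HSTS from 9 UMIs in 42 cells. In E16 HS, where the cluster was largest, the level was 5.83 CPM (4.86 to 6.93) from 127 UMIs in 1559 cells, giving an E16 HS to E19 HS ratio of 0.146 (0.0952 to 0.232). In that cluster 27% of 8051 genes differed 2-fold between these libraries, in either direction. In the POSTN cluster that share was 7.73% and in somite-like cells 7.23%.

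Among the other cell types, epithelial cells held 14.1% of the CXCL12 UMIs at E16. Gut epithelium-like cells of the CLDN7 cluster had 5.65, 6.36 and 9.23 CPM, with overlapping intervals, and at E16 this level was above the 7.57 CPM of somite-like cells with overlapping intervals. Neural progenitor-like cells had 2.02 CPM (1.32 to 2.96), 0.612 CPM (0.305 to 1.09) and 0.601 CPM (0.164 to 1.54), from 26, 11 and 4 UMIs. The E19 HSTS to E19 HS ratio was 3.30 (1.57 to 7.39) in these cells, on 37 UMIs and so under the 50 UMIs of the genes counted for the background. The E19 HS and E16 HS intervals overlapped those of blood progenitor-like cells, at 0.274 CPM (0.110 to 0.564) and 0.216 CPM (0.0794 to 0.471). Endothelium-like cells, which line vessels, had 8 UMIs in E19 HSTS, 5 in E19 HS but none at E16, where 0 of 54 cells allows a share of up to 5.56% of cells with a UMI (3 counts), which does not limit how many express the gene. Myeloid-like cells had no CXCL12 UMI in 20, 46 and 14 cells, so the gene was not detectable in them at these cell numbers.

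**Figure D2:**
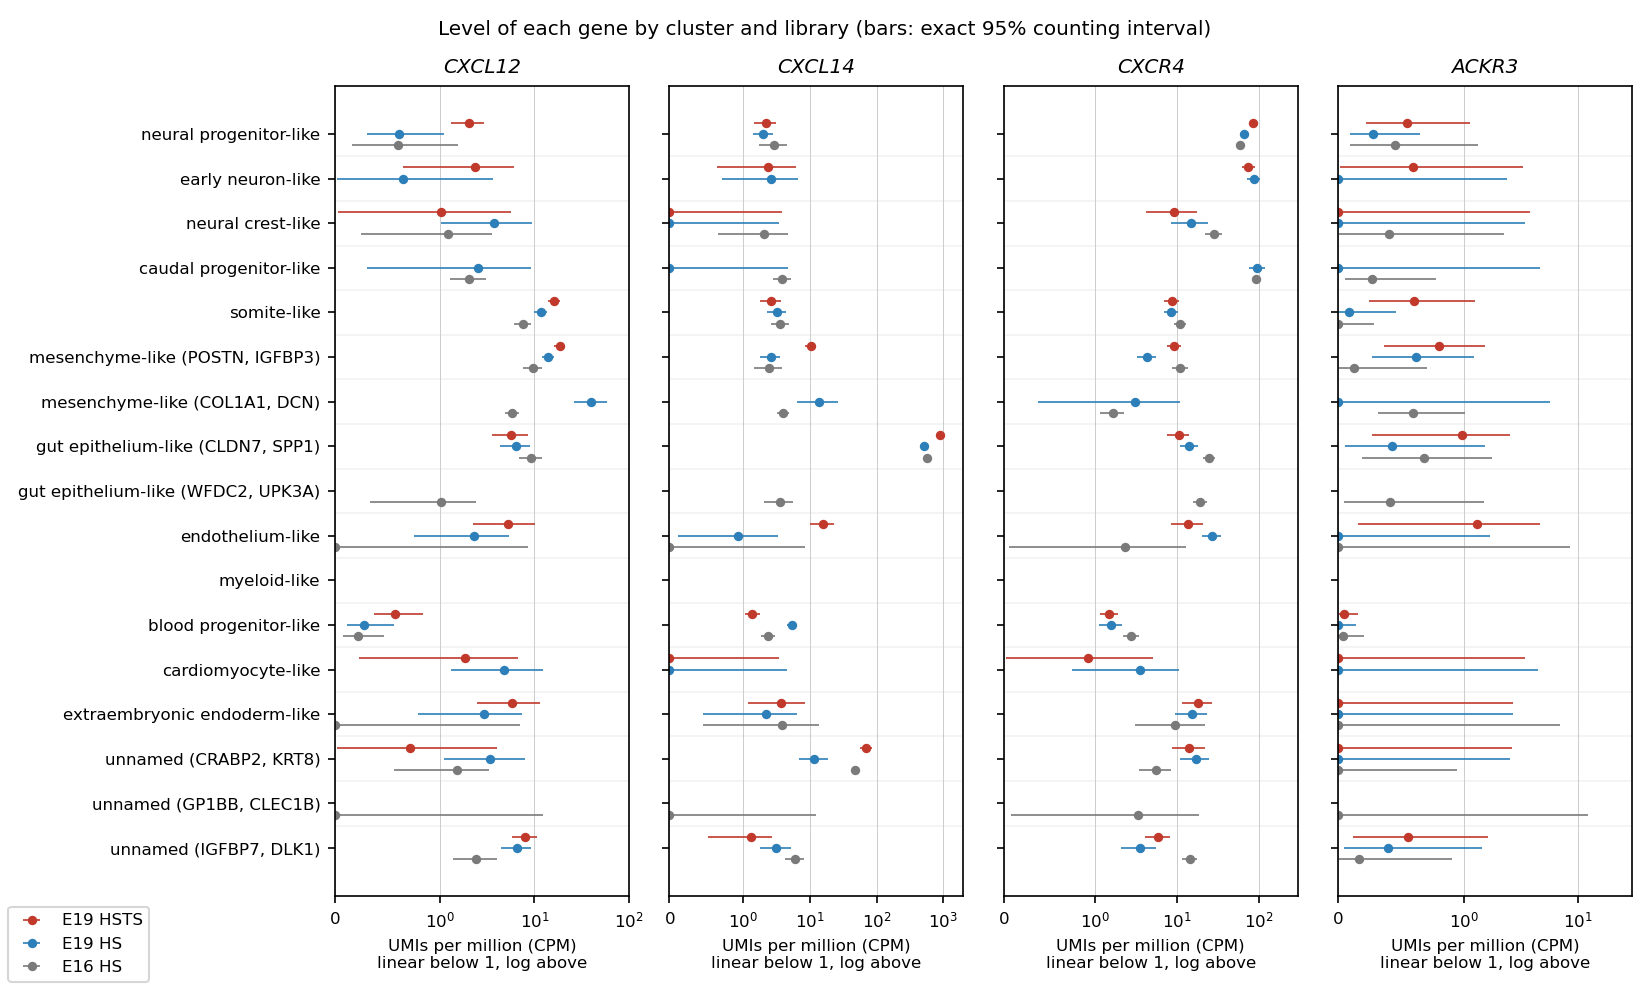
Level of each gene in CPM (horizontal, linear below 1 and logarithmic above) by cluster (vertical) and library (colour), with exact 95% counting intervals, for clusters of at least 50 cells in that library. At E19 CXCL12 is highest in mesenchyme-like and somite-like cells, while at E16 the POSTN mesenchyme-like (9.69 CPM) and CLDN7 gut epithelium-like (9.23 CPM) clusters lead with overlapping intervals. CXCL14 is highest in the CLDN7 gut epithelium-like cluster at 509 to 887 CPM, and CXCR4 is highest in neural and caudal progenitor-like clusters.

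CXCL14 was concentrated in 1 epithelial cluster. The CLDN7 and SPP1 gut epithelium-like cluster, 393, 522 and 583 cells, held 90.5% of the CXCL14 UMIs of E19 HSTS, 89.0% of those in E19 HS and 86.2% at E16. Its level was 887 CPM (859 to 917) in E19 HSTS, 509 CPM (489 to 530) in E19 HS and 566 CPM (547 to 585) in E16 HS. E19 HSTS was the highest library and the others were close together. The E19 HSTS to E19 HS ratio was 1.74 (1.66 to 1.84) and the E16 HS to E19 HS ratio was 1.11 (1.05 to 1.17), below 2-fold in both. The other epithelial cluster, led by WFDC2 and UPK3A, had 17 UMIs in 326 cells of E16 HS, or 3.5 CPM (2.04 to 5.60). Taken over all epithelial cells the E16 HS to E19 HS ratio became 0.620 (0.588 to 0.654), since that second cluster was nearly absent at E19. The direction of the E16 HS to E19 HS difference in epithelium therefore depends on whether the WFDC2 cluster is counted.

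The UMIs of CXCL14 sat in few cells, which makes the counting intervals too narrow for it. Of 253 cells with CXCL14 in E19 HSTS, 133 had at least 10 UMIs and held 91.9% of the total. In E19 HS 87 of 217 cells held 87.4%, and in E16 HS 142 of 422 cells held 82.9%, with a highest cell of 99, 76 and 88 UMIs. The share of cells is less exposed to this: 42.5% of the CLDN7 cluster cells had CXCL14 in E19 HSTS (37.6% to 47.5%), 24.7% in E19 HS (21.1% to 28.6%) and 36.4% in E16 HS (32.5% to 40.4%). Thinned to 3000 UMIs the shares were 38.5%, 21.5% and 32.9%, in the same order. Without the 10 cells of each library with the most CXCL14, an alternative added after the values were seen, the epithelial E19 HSTS to E19 HS ratio was 1.86 (1.75 to 1.97). Blood progenitor-like cells had a UMI in 0.721%, 0.563% and 1.15% of cells.

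Within the CLDN7 cluster CXCL14 followed markers of surface ectoderm, the embryonic skin layer. These 7 detected markers (TP63, KRT5, KRT15, GRHL3, TFAP2A, PERP and WNT6) had been listed as a cell type that formed no cluster of its own, and the split of the cluster by them was made after the values were seen. In E19 HSTS 28.0% of the cells with none of these markers had CXCL14, against 51.9% of cells with 1 marker and 66.2% of cells with 2 or more. The same shares were 15.6%, 34.7% and 53.8% in E19 HS, and 23.1%, 43.9% and 74.6% in E16 HS. With cells thinned to 3000 UMIs, the cells with 1 marker were again above those with none, at 53.8% against 33.8%, 36.0% against 18.0%, and 43.7% against 29.5%. The groups with 2 or more markers then held only 7, 9 and 10 cells. Among cells without any marker E19 HSTS (21.8% to 34.9%) was also above E19 HS (11.9% to 20.1%) at all UMIs.

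**Figure D3:**
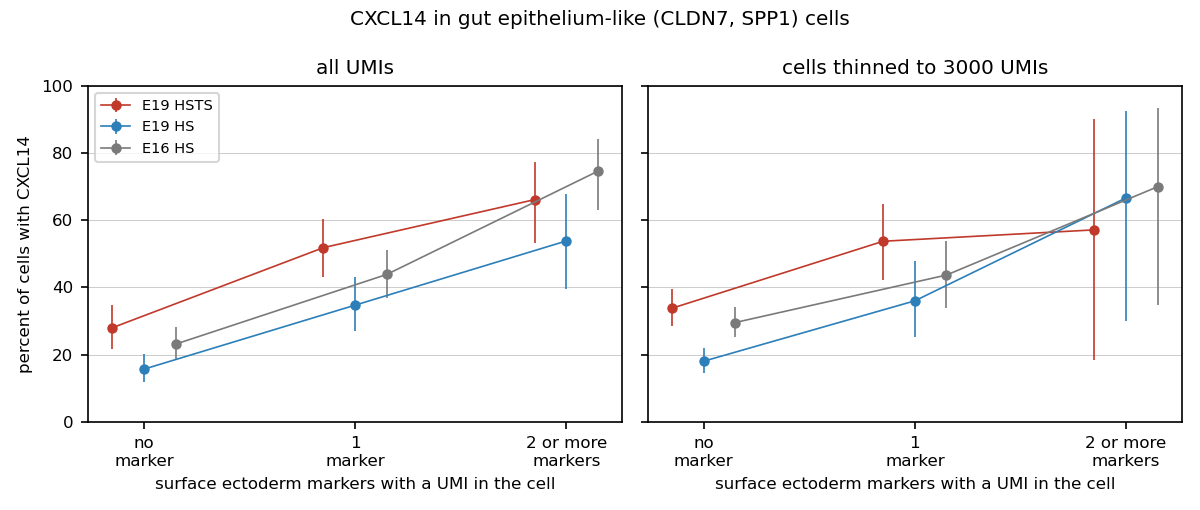
Percent of CLDN7 cluster cells with a CXCL14 UMI (vertical) by the number of surface ectoderm markers with a UMI in the same cell (horizontal), for the 3 libraries with exact 95% binomial intervals, at all UMIs (left) and at 3000 UMIs per cell (right). In each library the share at all UMIs is lowest without a marker, 15.6% to 28.0%, and highest with 2 or more, 53.8% to 74.6%.

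A finer clustering separated 35, 30 and 106 cells led by TAC3, a tachykinin gene, together with SPP1, KRT19 and TNC. They had CXCL14 at 1121, 2012 and 515 CPM, and 65.7%, 73.3% and 45.3% of them had a UMI. These cells matched no marker list well and stay unnamed. The remaining CLDN7 cells had 863, 401 and 582 CPM, with E19 HSTS the higher E19 library. In the TAC3 cells its level was the lower one, but this rests on 35 and 30 cells and sets no direction.

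Outside the epithelial clusters cells with at least 10 CXCL14 UMIs were rare. E19 HSTS had 14 of them, E19 HS had 6 and E16 HS had 15. Of these, 14, 6 and 13 also had at least 3 gut epithelium or surface ectoderm markers, against 6.62%, 5.87% and 15.6% of the other cells outside the epithelial clusters, and 8, 3 and 6 of them had doublet scores among the highest 8% of their library. In the POSTN mesenchyme-like cluster CXCL14 was at 10.2 CPM in E19 HSTS and 2.55 CPM in E19 HS, a ratio of 4.00 (2.69 to 6.08) where 3.24% of genes passed 2-fold, but the shares of cells with a UMI were 0.743% and 0.833%. Without the cells of at least 10 CXCL14 UMIs, an alternative added after the values were seen, that ratio was 0.419 (0.197 to 0.833). All 24 CXCL14 UMIs of the E19 HSTS endothelium-like cells came from 1 cell. In E19 HS 136 UMIs in blood progenitor-like cells came from 0.563% of the cells, and the E19 HSTS to E19 HS ratio of 0.257 there became 1.36 (0.672 to 2.92) without such cells. Somite-like and neural progenitor-like cells were at 2.00 to 3.59 CPM and had a CXCL14 UMI in 0.420% to 1.37% of cells, where blood progenitor-like cells were at 1.37, 5.32 and 2.38 CPM. The COL1A1 and DCN cluster of E16 HS had a UMI in 3.4% of cells (2.56% to 4.42%).

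CXCR4, the receptor of CXCL12, had its main source in neural cells at E19. Neural progenitor-like and early neuron-like cells held 72.5% of its UMIs in E19 HSTS (70.3% to 74.6%) and 72.9% in E19 HS (70.8% to 74.9%), but 18.1% in E16 HS (16.5% to 19.7%). Caudal progenitor-like cells, a cluster with T, CDX2 and FGF8 among its detected markers and a type known to extend the tail end of the body axis, held 47.4% of CXCR4 UMIs in E16 HS and 2.19% and 4.21% at E19. There were 1144 such cells at E16 and 34 and 112 at E19. The gap between the E19 libraries depended on the clustering. With RPCA integration E19 HSTS had 111 such cells, E19 HS had 122 and E16 HS had 857. At resolution 1.0 the E19 libraries had 35 and 113, and 1 and 28 when single cells were gated by markers. In the main clustering the CXCR4 level of these cells overlapped across the libraries. It was 128 CPM (90.1 to 176) in E19 HSTS, 97.1 CPM (76.6 to 121) in E19 HS and 93.8 CPM (88.2 to 99.6) in E16 HS. In E19 HSTS 5 of the 10 caudal markers were at 0 in its 34 cells.

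In neural progenitor-like cells CXCR4 was at 85.4 CPM in E19 HSTS (80.4 to 90.6), 66.6 CPM in E19 HS (62.9 to 70.5) and 59.8 CPM in E16 HS (54.1 to 66.0). The intervals of E19 HSTS did not meet those of the others. The E19 HSTS to E19 HS ratio was 1.28 (1.18 to 1.39), and a UMI was found in 42.0%, 34.9% and 34.3% of the cells, far above 2.09%, 2.32% and 2.40% in blood progenitor-like cells. At 3000 UMIs per cell the shares drew closer, to 21.8%, 19.1% and 16.7%. Early neuron-like cells had 75.4 CPM (62.8 to 89.7) and 87.4 CPM (73.3 to 103) at E19, with overlapping intervals. The 18 early neuron-like cells of E16 HS had 5 UMIs. A finer clustering set apart cells with SPON1 and NTN1, secreted axon guidance genes, among their leading genes. They had CXCR4 at 123 CPM (95.7 to 156) in E19 HSTS and 89.7 CPM (69.5 to 114) in E19 HS. Their closest marker list was notochord, with SHH and SPON1 detected. With fewer than 3 markers they stay unnamed, and whether they are neural was not settled.

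Endothelium-like cells carried CXCR4 at 13.6 CPM in E19 HSTS (8.44 to 20.8), 26.7 CPM in E19 HS (20.3 to 34.6) and 2.31 CPM in E16 HS (0.0584 to 12.9). These rest on 21, 58 and 1 UMIs in 168, 284 and 54 cells. The E19 HSTS to E19 HS ratio was 0.510 (0.294 to 0.853) and the E16 HS to E19 HS ratio was 0.0863 (0.00215 to 0.50). The share of cells with a UMI, 7.74% (4.18% to 12.9%) and 10.9% (7.54% to 15.1%) at E19, overlapped between the libraries. In E16 HS, 9.76% of the genes compared in these cells differed 2-fold from E19 HS.

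The POSTN mesenchyme-like cluster had CXCR4 at 9.32 CPM in E19 HSTS (7.63 to 11.3), 4.34 CPM in E19 HS (3.27 to 5.63) and 11.1 CPM in E16 HS (8.89 to 13.6). E19 HS was the low library, with ratios of 2.15 (1.54 to 3.03) for E19 HSTS and 2.56 (1.81 to 3.64) for E16 HS against it, and its level was above the 1.57 CPM (1.12 to 2.13) of blood progenitor-like cells. In that cluster 3.24% of genes differed 2-fold between the E19 libraries, in either direction. Somite-like cells had 8.71, 8.60 and 10.9 CPM, with overlapping intervals. The CLDN7 gut epithelium-like cluster had 10.6 CPM (7.65 to 14.2), 14.2 CPM (11 to 18.1) and 24.6 CPM (20.8 to 29.0), highest at E16, and the WFDC2 cluster of E16 HS had 19.4 CPM (15.6 to 23.7). Neural crest-like cells, a migratory population, had 9.24 CPM (4.22 to 17.5), 14.9 CPM (8.52 to 24.2) and 28.3 CPM (22.0 to 35.7). Myeloid-like cells had 1, 4 and 1 UMIs, too few to compare.

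**Figure D4:**
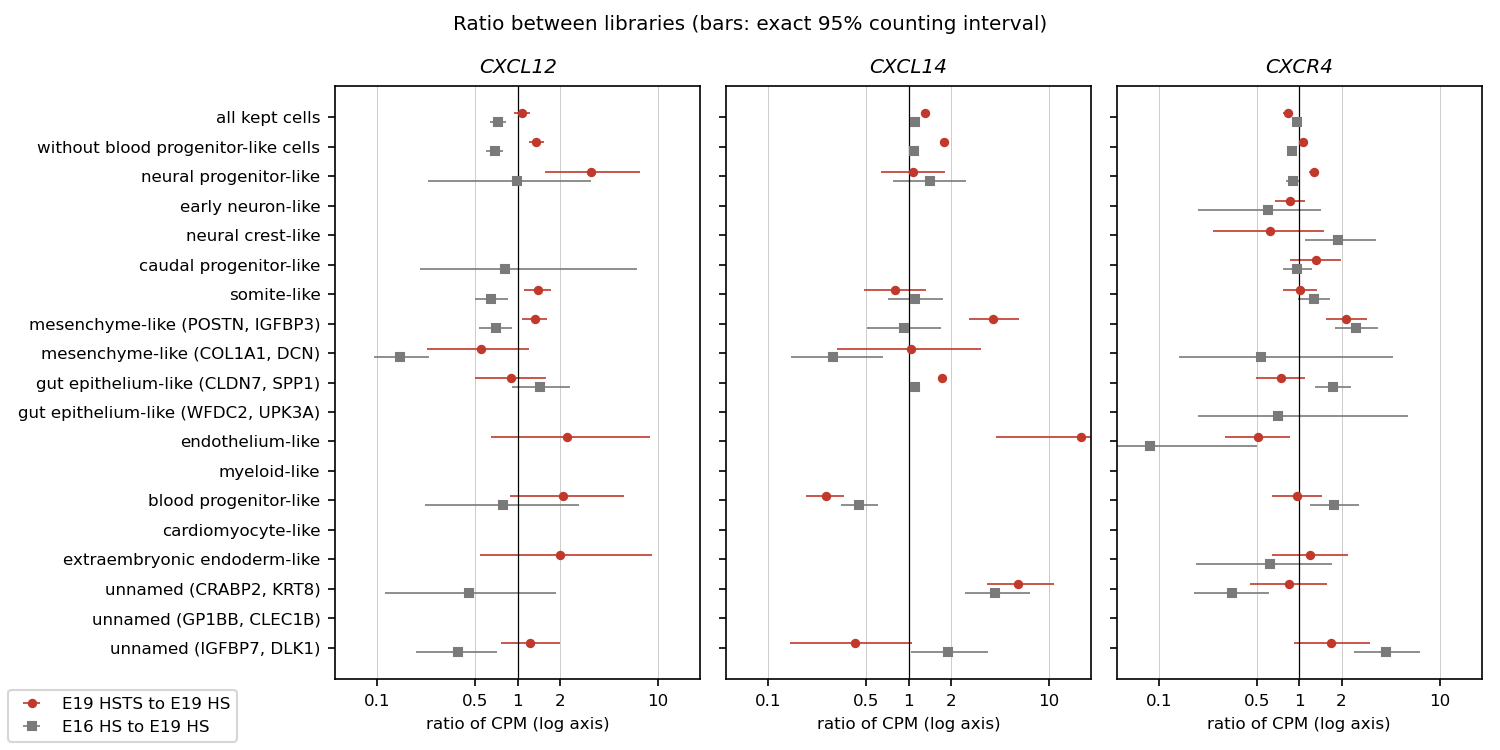
Ratio of CPM between libraries (horizontal, logarithmic axis) by cell group (vertical) for CXCL12, CXCL14 and CXCR4, with exact 95% counting intervals, where the libraries together held at least 10 UMIs. E19 HSTS to E19 HS ratios of CXCR4 lie above 1 in neural progenitor-like cells (1.28) and the POSTN cluster (2.15) and below 1 in endothelium-like cells (0.510). The CXCL14 endothelium-like point rests on 1 cell, and intervals that reach the edge of a panel run beyond it.

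ACKR3, the scavenging receptor, was too sparse for a comparison by cell type. Of its UMIs, 9 of 35 in E19 HSTS, 8 of 18 in E19 HS and 14 of 29 in E16 HS lay in mesenchymal cells, which is 25.7% (12.5% to 43.3%), 44.4% (21.5% to 69.2%) and 48.3% (29.4% to 67.5%). Neural cells held 8, 5 and 3 UMIs. Somite-like cells held 7, 1 and 0 UMIs, and 0 of 1386 cells allows a share of up to 0.216% of cells with a UMI by the same 3 counts, not of cells expressing the gene. Endothelium-like cells held 2 UMIs in E19 HSTS and none elsewhere, and no myeloid-like cell had one.

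Ligand and receptor were seldom found in the same cell. Among cells other than blood progenitor-like, CXCL12 and CXCR4 were detected together in 28 E19 HSTS cells, 20 E19 HS cells and 30 E16 HS cells, where independent detection would give 63.8, 49.9 and 47.1. Within the POSTN cluster the counts were 3, 4 and 3 against 8, 3.37 and 3.73, and within somite-like cells 5, 4 and 2 against 7.75, 4.31 and 6.08. CXCL12 cells lay mostly in mesodermal clusters and CXCR4 cells in neural and caudal ones. Within the POSTN and somite-like clusters the joint counts were at most 5 cells, and 5 of the 6 lay below the independent number. In the CLDN7 cluster CXCL14 and CXCR4 met in 7, 4 and 19 cells against 14, 12.9 and 33.5. CXCL14 and CXCL12 met there in 14, 5 and 34 cells against 8.92, 6.43 and 17.1, above the independent number in E19 HSTS and E16 HS and below it in E19 HS. At 3000 UMIs per cell E16 HS kept its excess, 9 cells against 4.28, and E19 HSTS did not, with 2 against 2.69.

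Genes with the most similar pattern were sought among 7521 genes over 40 combinations of cluster and library, points that share libraries and depth. OLFML3 (r = 0.760), RECK (0.752), GAS2 (0.742), GORAB (0.735) and SOX6 (0.732) were most like CXCL12. TAC3 (0.748) led for CXCL14, followed by FAM162B, VMO1, RAB25 and CCDC68 (0.608 to 0.632). LRP3 (0.805), GREB1L, CALCOCO2, DLL1 and TMEM59L (0.742 to 0.767) were most like CXCR4. For ACKR3, whose values are mostly 0 or 1 UMI, SPG21 (0.619), SEMA3D, PHLPP2, OTUD6B and RNF168 came first. These lists were not stable: with the finer clusters 0, 1, 1 and 2 of the 5 genes remained for CXCL12, CXCL14, CXCR4 and ACKR3.

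Few other chemokine genes were detected beyond a handful of UMIs. Of the other CXC and CX3C ligands 6 of 12 were listed and only CXCL10, an interferon-induced chemokine, reached 50 UMIs in a library. Its UMIs lay in myeloid-like cells, 270 of 271 in E19 HSTS, 151 of 155 in E19 HS and 27 of 28 in E16 HS. Of the CC and XC ligands 15 of 17 were listed and 3 reached 50 UMIs, namely CCL2, CCL25 and CCL27. Of the other chemokine receptors 17 of 20 were listed, and only the decoy receptor ACKR1, also found on red cells and vessel walls, reached that level, at 3.04, 1.62 and 1.24 CPM. Of its UMIs, 270 of 303, 90 of 144 and 117 of 140 lay outside the neural, somitic, endothelial, myeloid, epithelial and mesenchymal cells. Blood progenitor-like cells belong to that remainder. In endothelium-like cells the E19 order was the other way, at 11.03 CPM in E19 HSTS (17 UMIs) and 19.82 CPM in E19 HS (43 UMIs). This difference was not tested.

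These lists and the partners of CXCL12 signalling held 19 genes that reached 50 UMIs. Over all kept cells none of them differed 2-fold between the E19 libraries, where 3.81% of 12439 genes did. Between E16 HS and E19 HS 1 was higher and 3 were lower past 2-fold, where 6.96% of all genes compared were higher and 6.38% lower. CCL2, which attracts monocytes, had a ratio of 4.20 (3.14 to 5.71) and CXCL10 of 0.142 (0.0911 to 0.213). Both rest on few cells, which makes these intervals too narrow. For CXCL10, 27 of 28 UMIs in E16 HS came from 4 myeloid-like cells, and 151 of 155 in E19 HS from 20. For CCL2, 103 of 295 UMIs in E16 HS came from 8 myeloid-like cells. The G protein gene GNAI1 had a ratio of 0.432 (0.387 to 0.483) and CALCRL, an endothelial peptide receptor, of 0.450 (0.354 to 0.569). Endothelium-like cells held 105 of 197 CALCRL UMIs in E19 HS but 6 of 113 in E16 HS, where mesenchymal cells held 70. The level in endothelium-like cells was 48.4 CPM in E19 HS and 13.9 CPM in E16 HS. The median ratio over the 14 partners was 1.10, against 1.17 over all genes compared. MIF, another ligand of CXCR4, was at 1789, 3312 and 3913 CPM over all kept cells, with an E19 HSTS to E19 HS ratio of 0.540 (0.537 to 0.543). That ratio includes blood progenitor-like cells, 27.4% and 13.4% of the cells, and is not given without them. In neural cells MIF had 43028 of 14571599 UMIs in E19 HSTS and 89304 of 19520261 in E19 HS. Mesenchymal cells had 27837 of 11674375 and 51069 of 13569432. RAMP2, the partner of CALCRL in endothelium, had 810, 851 and 882 CPM in endothelium-like cells.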

How the data were processed

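The deposited files hold raw UMI counts per gene and cell barcode, which the authors made with Cell Ranger (v6.1.2, per the labels) against the Ovis_aries_genome_v1.0 assembly; the notes also name Seurat (v4.1.1) in R (v4.1.2), whose output was not used here. The authors' counts were summed, with no normalization beyond counts per 1000000 UMIs (CPM). Depth is the 88733467 to 113213654 UMIs of the kept cells per library. Clusters were computed in Seurat (v5.3.0) over the 3 libraries together (2000 variable genes without the 4 genes, of which 2 would have been included, 25 principal components, mitochondrial percentage regressed out, resolution 0.25, 19 clusters, no integration). A cluster took the name of the marker list with most members among its 10 leading genes, with at least 3 markers detected. Ties went to the list with the highest mean standardised expression, which named most E19 blood progenitor-like cells. Clusters stayed unnamed with no leading marker and shallow cells or a low mean, or with at most 1 and another list higher. Clusters sharing a name and stage were reported by their leading genes, except blood progenitor-like clusters, which were summed. Cluster names are rebuilt and may differ from those of the study. Doublet scores came from Scrublet (in scanpy v1.11.5), which marked 193, 0 and 198 cells. Since it marked none in E19 HS, no cell was removed, and the 8% of cells with the highest scores were left out as an alternative.

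Levels have exact Poisson intervals, shares have Clopper-Pearson intervals and ratios have exact conditional intervals, all at 95%. Amplified reads were collapsed by UMI, and the intervals cover counting error only. A count of 0 is given an upper limit of 3 counts. The 2-fold background counts genes with at least 50 UMIs in the pair of libraries. Thinning drew 3000 UMIs per cell without replacement and left out 1106, 1345 and 1317 shallower cells, in the order E19 HSTS, E19 HS, E16 HS. Likeness is Pearson's r of log2(CPM + 1) over clusters of at least 50 cells. Named were the 4 genes, the listed chemokine and partner genes with at least 50 UMIs in a library, the 5 genes most like each member, and marker genes. The 4 genes and all lists were chosen with earlier results of these data known. Ratios and thinning were tested on simulated data. The ratios were simulated from independent Poisson sums per library, which does not cover UMIs that sit in few cells, as those of CXCL14 do. No E16 HSTS library was analysed here. The 4 genes matched RefSeq entries by symbol, and no sequence or coordinate is given because that table is of another assembly.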

Additional observations from a re-analysis of the deposited data

Results flagged for a closer look

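Some genes differed between the libraries in opposite directions in different cell types, with counting intervals on either side of 1. With 1 library per condition none of these differences was tested.

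CXCR4 in E19 HSTS against E19 HS had a ratio of 2.15 in the POSTN mesenchyme-like cluster and 1.28 in neural progenitor-like cells, but 0.51 in endothelium-like cells. For E16 HS against E19 HS the CXCR4 ratio was 2.56 in the POSTN cluster, 1.73 in CLDN7 gut epithelium-like cells, 1.9 in neural crest-like cells and 1.77 in blood progenitor-like cells, but 0.0863 in endothelium-like cells, where E16 HS had 1 UMI. The blood progenitor-like cells of E16 and of E19 came almost wholly from different clusters, 1979 of 2004 cells against 17 of 1421 in the same one.

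CXCL14 in E19 HSTS against E19 HS had a ratio of 1.74 in CLDN7 gut epithelium-like cells, 4 in the POSTN cluster and 16.9 in endothelium-like cells, but 0.257 in blood progenitor-like cells. For E16 HS against E19 HS it was 1.11 in CLDN7 gut epithelium-like cells, but 0.447 in blood progenitor-like cells, where 40.7% of all genes compared differed 2-fold, and 0.289 in the COL1A1 and DCN cluster. The endothelium-like value comes from 1 cell. Without cells of at least 10 CXCL14 UMIs the POSTN ratio was 0.419 and the blood progenitor-like ratios were 1.36 and 1.54, with intervals that include 1 for the latter pair.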

How the results depend on the processing

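Of the main values recomputed under another setting, 110 stayed within the counting interval of the first value, 66 left it and 3 whose interval excluded 1 changed direction. The ACKR3 ratio of E16 HS to E19 HS, whose interval includes 1, also crossed 1 after thinning (0.927). Counts of genes have no such interval and were judged by a fixed factor. Of further values, shares of cells with at least 2 UMIs and CXCL14 ratios outside epithelium, 3 stayed, 9 left the interval and 3 changed direction. The causes were not tested unless a construction is named. No paired analysis was possible because each condition is 1 library, and for the same reason no replicate could be left out.

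Directions changed for the CXCR4 ratio of E19 HSTS to E19 HS without blood progenitor-like cells (1.06), for the CXCL14 ratio of E16 HS to E19 HS with TMM scaling (0.967), and for the somitic CXCL12 ratio of E19 HSTS to E19 HS when single cells were gated by markers (0.751, 0.359 to 1.63). TMM scaling in edgeR moved all E16 HS to E19 HS ratios by -0.21 on the log2 scale, so that CXCL12 became 0.627 and CXCR4 0.828. Thinning made them 0.628 and 0.862, and dropping blood progenitor-like cells gave 0.891 for CXCR4. For E19 HSTS to E19 HS dropping those cells gave 1.36 for CXCL12 and 1.79 for CXCL14, thinning gave 1.46 for CXCL14, and leaving out the 10 cells with most CXCL14, a setting chosen after seeing the data, gave 1.39. Counting every gene with at least 1 UMI raised the genes past 2-fold from 474 to 3795 between the E19 libraries and from 1678 to 5560 between ages.

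Shares of a gene's UMIs follow in the order E19 HSTS, E19 HS, then E16 HS. The mesenchymal share of CXCL12 became 17.4%, 20.8% and 38.4% at resolution 1.0, 6.23%, 10.2% and 28.6% with RPCA integration, which moved most POSTN cluster cells to somite-like or unnamed clusters, and 59.5%, 62.0% and 66.3% with gated cells. It was 45.6% in E19 HSTS without the highest doublet scores and 53.6% in E19 HS after thinning. The epithelial share of CXCL14 became 94.4%, 93.6% and 88.7% without the highest doublet scores and 77.9%, 65.6% and 70.4% at resolution 1.0, which left the TAC3 cells unnamed. It was 92.0% in E19 HS after thinning and 78.0% in E16 HS with gated cells. The neural share of CXCR4 became 77.0%, 77.0% and 19.9% without the highest doublet scores, 76.4%, 78.1% and 20.9% after thinning, and 55.9%, 54.0% and 13.8% with gated cells. It was 67.2% and 68.2% at E19 at resolution 1.0, 75.1% in E19 HS under the stricter filter (at least 500 genes, under 5% mitochondrial), and 20.7% in E16 HS with RPCA. The mesenchymal share of ACKR3 was 50% in E19 HSTS and 25% in E16 HS after thinning, and 0% in E19 HS with RPCA.

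Within classes, the E16 HS to E19 HS ratio of CXCL12 was 0.155 in mesenchymal cells with RPCA and 0.343 in gated somitic cells. The mesenchymal CXCL12 ratio of E19 HSTS to E19 HS, 1.22 at first, was 1.08 (0.791 to 1.47) after thinning, an interval that includes 1. For E19 HSTS against E19 HS the epithelial CXCL14 ratio was 2.17 at resolution 1.0, 1.59 with gated cells and 1.86 without the 10 cells with most CXCL14. Between ages it was 0.666 without the highest doublet scores, 0.711 after thinning and 0.721 at resolution 1.0. The neural CXCR4 ratio was 1.12 (0.989 to 1.27) for E19 HSTS to E19 HS after thinning and 0.773 for E16 HS to E19 HS with RPCA.

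Cells with CXCL12 and CXCR4 together were 0.0844%, 0.0254% and 0.0618% of the cells after thinning and 0%, 0.0109% and 0% when at least 2 UMIs of each were required. Of the 5 genes most like each member, 0 for CXCL12, 1 for CXCL14, 1 for CXCR4 and 2 for ACKR3 recurred at resolution 1.0.

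Leaving out cells of at least 10 CXCL14 UMIs, also chosen after seeing the data, reversed 3 CXCL14 ratios outside epithelium: the E19 HSTS to E19 HS ratio in the POSTN cluster became 0.419 and in blood progenitor-like cells 1.36, and the E16 HS to E19 HS ratio in blood progenitor-like cells became 1.54.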
